A study of Mus musculus with 58 samples.

Results

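The genes described here encode the DNA replication machinery and the cyclins of the G1-to-S transition. The list of 39 genes was given by name, and 36 of them were among the 20177 genes of the count tables; Orc2, Mcm7 and Gins2 were not analysed here. All cells were E14 mouse embryonic stem (mES) cells of the 129/Ola background, grown in serum with LIF. DPY30–mAID cells are clones in which the SET1/COMPASS subunit DPY30 carries an auxin-inducible degron and OsTIR1 is expressed. Auxin at 500 nM depletes the protein. The RBBP5–FKBP line is clonal and loses the subunit RBBP5 when given dTAG-13. The other background was DPY30–mAID with both H3K4 demethylase genes Kdm5a and Kdm5b deleted (dKO), so its auxin-free controls lack these enzymes too. SLAM-seq was done at 0, 2, 8 and 24 h of ligand in DPY30–mAID and RBBP5–FKBP cells (3 libraries per time) and at 0, 2, 4, 8, 24 and 48 h of auxin in dKO cells (2 libraries per time). In SLAM-seq, newly made RNA takes up 4-thiouridine (4SU; here 100 µM for 60 min) and is read as T>C mismatches, so that T>C reads report nascent RNA and all reads report total RNA. Quant-seq, which counts 3′ ends of unlabelled RNA, was done in DPY30–mAID cells with DMSO or auxin over 8 h and 1, 2, 4 and 6 days of 1 µM retinoic acid (RA) without LIF, with 2 libraries per group. The shared starting point was a DMSO group at 0 h. The study calls its SLAM-seq replicates biological. For the Quant-seq libraries no such statement was found in the sources used here, so their p-values measure the spread between libraries, which may be technical.

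DNA replication is licensed in G1, when the origin recognition complex, CDC6 and CDT1 load the MCM helicase onto DNA, and it starts when cyclin E–CDK2 and related kinases convert the loaded helicase into the CDC45–MCM–GINS (CMG) helicase. Primase, the replicative polymerases, the sliding clamp PCNA and its loader then copy both strands while ribonucleotide reductase and thymidylate synthase supply nucleotides. Many of these genes are targets of E2F factors. mES cells, which have a short G1 and spend much of their cycle in S phase, carry high levels of their RNA, and differentiation lengthens G1.

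The promoters of the list were examined for 2 kinds of motif, in windows from 250 bases upstream to 50 bases downstream of the start site taken from RefSeq (GRCm38.p6), which held 30 of the 39 genes. An E2F-type motif (GCGGGAAA, TTTGGCGC or TTTCGCGC on either strand, counted where matches overlap) was present for 12 of the 30 genes (40%) and for 573 of 27025 genes with a window (2.12%). The 12 genes were Cdc6, Cdt1, Gins3, Lig1, Mcm3, Mcm5, Mcm6, Mcm7, Orc1, Pola1, Pold1 and Rfc3. A CCAAT box on either strand was present for 20 of the 30 (66.7%) and for 41.1% of all genes. A match describes letters only. The 160 bases just upstream of the start site are shown for 7 genes that the results below turn on or that carry the motifs, 5′ to 3′ on the gene's strand, with the motif letters in capitals. Cdc6 (chr11:98907991-98908150, + strand), Mcm5 (chr8:75109349-75109508, + strand) and Mcm6 (chr1:128359706-128359865, − strand) hold E2F-type motifs. Mcm10 (chr2:5012792-5012951, − strand), Pcna (chr2:132253181-132253340, − strand) and Rrm2 (chr12:24708094-24708253, + strand) hold CCAAT boxes and no E2F-type motif in this stretch. Ccne1 (chr7:38107491-38107650, − strand) holds neither.
Cdc6: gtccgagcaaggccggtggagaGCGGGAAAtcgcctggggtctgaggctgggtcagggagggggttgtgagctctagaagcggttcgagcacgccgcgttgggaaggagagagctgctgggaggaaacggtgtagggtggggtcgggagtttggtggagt
Mcm5: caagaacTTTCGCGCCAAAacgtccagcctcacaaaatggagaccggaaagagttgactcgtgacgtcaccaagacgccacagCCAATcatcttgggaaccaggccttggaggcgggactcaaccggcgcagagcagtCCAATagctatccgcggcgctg
Mcm6: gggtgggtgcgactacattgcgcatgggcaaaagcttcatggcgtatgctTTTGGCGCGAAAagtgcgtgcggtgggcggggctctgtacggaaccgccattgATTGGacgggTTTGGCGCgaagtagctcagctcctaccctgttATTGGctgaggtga
Mcm10: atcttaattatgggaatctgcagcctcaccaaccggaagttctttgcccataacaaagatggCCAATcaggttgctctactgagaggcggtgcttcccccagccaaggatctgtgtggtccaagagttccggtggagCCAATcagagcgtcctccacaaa
Pcna: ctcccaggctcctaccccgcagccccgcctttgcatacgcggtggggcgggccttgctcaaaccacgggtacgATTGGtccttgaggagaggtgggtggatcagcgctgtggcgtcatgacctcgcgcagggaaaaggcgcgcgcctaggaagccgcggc
Rrm2: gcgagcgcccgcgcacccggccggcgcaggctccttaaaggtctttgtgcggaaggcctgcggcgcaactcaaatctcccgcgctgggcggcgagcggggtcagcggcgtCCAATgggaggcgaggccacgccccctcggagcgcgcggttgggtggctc
Ccne1: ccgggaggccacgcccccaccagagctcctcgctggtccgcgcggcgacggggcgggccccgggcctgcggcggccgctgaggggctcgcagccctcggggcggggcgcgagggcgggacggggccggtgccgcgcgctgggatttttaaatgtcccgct

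Libraries held 1721185 to 2852331 counted reads in the degron lines, 5931269 to 7792404 in dKO cells and 1264241 to 2543632 in Quant-seq. T>C reads were 2.04 to 16.1% of SLAM-seq reads and 0.303 to 0.388% of unlabelled Quant-seq reads. The DPY30–mAID 8 h libraries stood apart from each other, with 13.03, 9.82 and 5.51% T>C reads. Both DMSO files of day 6 carried the same values and entered as 1 library, and day 6 was not tested. Several members also varied within groups, in the same libraries. Mcm4 was at 92.3, 361 and 343 CPM in total RNA of RBBP5–FKBP cells at 0 h and at 158, 61.2 and 388 CPM at 8 h, and was not called there. Rrm2 was at 209, 385 and 357 CPM at 0 h and 248, 155 and 298 CPM at 8 h in these libraries. Mcm5 went the other way, with 627, 565 and 601 CPM at 0 h and 681, 853 and 716 CPM at 8 h. All 12 pluripotency markers were detected in every group of the series. The degrons act on the proteins, so Dpy30 and Rbbp5 RNA checks nothing; Kdm5b was at 927 to 983 CPM at 0 h in DPY30–mAID cells and at 113 to 154 CPM in dKO cells. Values are counts per 1000000 reads (CPM), and nascent CPM are T>C reads per 1000000 of all reads of the library. Apart from Kdm5b as a check of its deletion, levels are compared neither between genes nor between lines, since dKO reads covered 11.2 T positions on average against 18.7 in the other lines. Log2 fold changes are given ± SE from edgeR's quasi-likelihood test, adjusted over all genes tested, and a gene is called at an adjusted p below 0.05. For bulk RNA, fewer cells in a phase or of a type cannot be told apart from less RNA per cell. Reads that mapped to more than 1 place made up 75.4% of those of Pcna, 21.7% for Tyms, 17.96% for Cdc6 and 4.62% for Rfc2, so the values of these genes are uncertain.

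During RA in DMSO, most replication genes fell by day 4. At 8 h, 3 of 36 members were lower (9.43% of all 11415 genes tested were) and 6 were higher (8.94% of all). DESeq2 called 1 lower and 2 higher at 8 h, and fits with 1 library left out called 1 to 2 lower and 2 to 3 higher. At day 1, 18 were lower (23.9% of all) and 7 were higher (27.8%); with 1 library left out, 11 to 15 were lower (11 without day 1 replicate 1) and 5 to 7 higher. At day 2, 24 were lower (22.7%) and 3 were higher (25.4%). At day 4, 30 were lower (26.6%) and only Ccne2 was higher (27.8%), with a median log2 fold change of −1.02 over the members and 0.04 over all genes. The members' lower share was thus near that of all genes at 8 h (8.33%) and above it at day 1 (50%), day 2 (66.7%) and day 4 (83.3%). The members' summed expression was 8454 and 8553 CPM at 0 h and 3960 and 3990 CPM at day 4. Cell identity moved over the same days: the 12 pluripotency markers summed to 8523 to 8936 CPM at 0 h and 4082 to 4114 CPM at day 4, and the 10 primitive endoderm markers to 51.3 to 52.6 CPM and 2993 to 3037 CPM, all 10 being detected at day 4. The 9 trophectoderm markers reached 607 to 634 CPM at day 4, from 82.4 to 95.3 CPM, while the 9 fibroblast markers stayed at or below 62.7 CPM and the 11 neural markers between 154 and 261 CPM in these groups. Their part in the change of the replication genes was not tested.

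**Figure D1:**
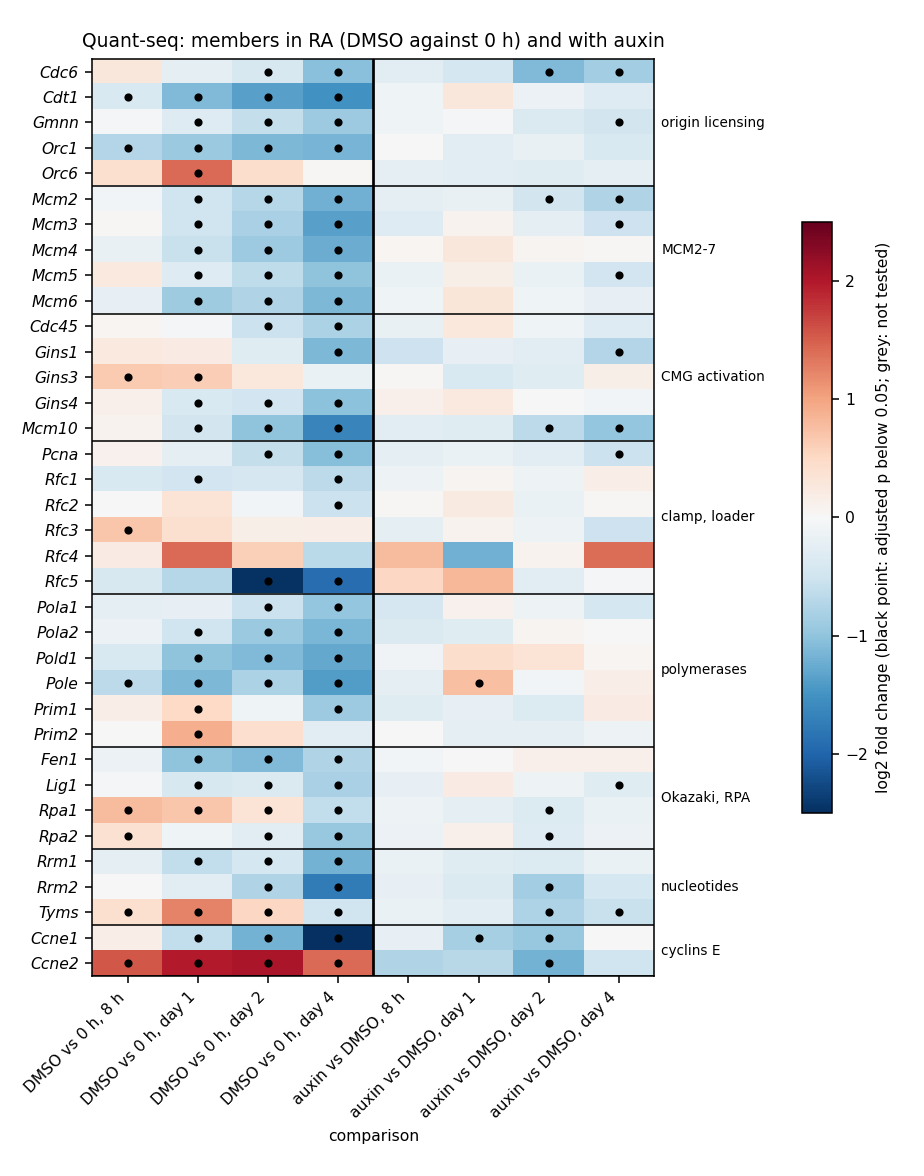
Log2 fold change (colour) of each of the 36 members, ordered by role in rows, in the RA time course: DMSO against 0 h and auxin against DMSO at each time in columns. In DMSO the rows turn lower from day 1 to day 4, when 30 members were called lower (26.6% of all genes were), while Ccne2 stands out as higher at every time.

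Most licensing genes fell. Cdt1, which loads the helicase and is kept in check by geminin, was at 461 and 492 CPM at 0 h, 352 and 384 CPM at 8 h, 223 and 219 CPM at day 1, 169 and 201 CPM at day 2 and 166 and 168 CPM at day 4. It was lower at every time (day 1, −1.11 ± 0.11, adjusted p = 3.31e-09; day 4, −1.51 ± 0.11, adjusted p = 5.73e-12), and the 8 h call (−0.37 ± 0.10, adjusted p = 0.0123) was lost without 0 h replicate 2 or 8 h replicate 1. Cdc6, the ATPase that works with CDT1, held 164 and 165 CPM at 0 h and 129.8 and 150.2 CPM at day 1, and 72.2 and 88.2 CPM at day 4 (−1.04 ± 0.14, adjusted p = 4.22e-07). Orc1, the regulated subunit of the origin recognition complex, went from 68.7 and 59.8 CPM at 0 h to 49.4 and 29.1 CPM at 8 h and 33.3 and 24.2 CPM at day 4 (−1.15 ± 0.22, adjusted p = 6.42e-05). Its 8 h call (−0.73 ± 0.21, adjusted p = 0.0171) was lost without 0 h replicate 1 or 8 h replicate 2 and under DESeq2. Orc6, another subunit, took the opposite course at first: 78.9 and 68.4 CPM at 0 h, 191 and 199 CPM at day 1 (1.41 ± 0.23, adjusted p = 1.45e-05) and 81.3 and 68.04 CPM at day 4, when it was no longer called. Gmnn, the inhibitor of CDT1, was lower at day 4 (−0.91 ± 0.13, adjusted p = 1.92e-06).

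All 5 measured subunits of the MCM helicase were lower from day 1 on. Mcm2 was at 688 and 652 CPM at 0 h, 485 and 468 CPM at day 1, 425 and 397 CPM at day 2 and 285 and 296 CPM at day 4 (−1.20 ± 0.09, adjusted p = 3.53e-11). Mcm3 went from 477 and 511 CPM to 192 and 193 CPM (−1.36 ± 0.10, adjusted p = 1.50e-11). The other 3 subunits had similar changes at day 4, with log2 fold changes of −1.25 (Mcm4), −1.01 (Mcm5) and −1.11 (Mcm6), and the groups at 0 h and day 4 did not overlap for any subunit. The day 1 calls of Mcm4 and Mcm5 depended on single libraries, each being lost in 3 of the 4 fits with 1 library left out (0 h replicate 1, 0 h replicate 2 or day 1 replicate 1). Mcm10, which helps to activate the helicase at the origin, fell further: 191 and 176 CPM at 0 h, 91.5 and 91.9 CPM at day 2 and 55.3 and 60.9 CPM at day 4 (−1.66 ± 0.14, adjusted p = 1.66e-10). Of the other CMG genes, Cdc45 (−0.79), Gins1 (−1.12) and Gins4 (−1.03) were also lower at day 4 on the log2 scale, and Gins3, with −0.16, was not called.

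Genes of DNA synthesis followed more varied courses. Rpa1, the large subunit of the single-strand binding protein RPA, rose early, from 375 and 393 CPM at 0 h to 655 and 675 CPM at 8 h (0.79 ± 0.10, adjusted p = 9.42e-07). It was at 587 and 648 CPM at day 1 and fell to 252 and 252 CPM at day 4 (−0.61 ± 0.10, adjusted p = 9.76e-06). Tyms, thymidylate synthase, followed a like course one step later, with 103 and 110.2 CPM at 0 h, 225 and 278 CPM at day 1 (1.24 ± 0.13, adjusted p = 1.25e-08) and 74.4 and 76.99 CPM at day 4 (−0.49 ± 0.14, adjusted p = 0.00413). Neither gene's day 1 groups overlapped those at 0 h. Both ribonucleotide reductase subunits fell. Rrm2, the subunit made in S phase, went from 225 and 217 CPM to 64.9 and 66.2 CPM (−1.75 ± 0.15, adjusted p = 1.66e-10). Rrm1 went from 312 and 305 CPM to 138 and 136 CPM (−1.17 ± 0.12, adjusted p = 4.09e-09). The primase subunits were higher at day 1. Prim2 had 58.7 and 87.1 CPM against 39.96 and 37.6 CPM (0.91 ± 0.19, adjusted p = 2.87e-04). Prim1 had 146 and 129 CPM against 89.2 and 104 CPM (0.50 ± 0.15, adjusted p = 0.00807), a call lost without 0 h replicate 1 or day 1 replicate 1. At day 4 Prim1 was lower, at 48.4 and 55.1 CPM (−0.90 ± 0.17, adjusted p = 5.40e-05). Lig1, the ligase that joins Okazaki fragments, was at 697 and 651 CPM at 0 h and 361 and 406 CPM at day 4 (−0.81 ± 0.10, adjusted p = 1.76e-07). Pole, the catalytic subunit of the leading-strand polymerase, was lower at every time (day 1, −1.12 ± 0.20, adjusted p = 4.74e-05), the 8 h call being lost in 3 of 4 fits with 1 library left out. Pcna was at 582 and 588 CPM at 0 h and 318 and 237 CPM at day 4 (−1.07 ± 0.16, adjusted p = 3.33e-06). Of the clamp loader genes Rfc1 to Rfc5, 3 were lower at day 4 (Rfc1 −0.65, Rfc2 −0.53 and Rfc5 −1.90 on the log2 scale), each call being lost in 1 or 2 of the fits with 1 library left out. Rfc5 had few reads, with 14 and 12 (6.82 and 5.13 CPM) at 0 h and 3 and 1 (1.58 and 0.486 CPM) at day 2 (−2.48 ± 0.66, adjusted p = 0.00298), a call lost without day 2 replicate 2.

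The E cyclins, which activate CDK2 at the end of G1, went in opposite directions. Ccne1 was at 588 and 607 CPM at 0 h, 695 and 642 CPM at 8 h, 373 and 404 CPM at day 1, 274 and 251 CPM at day 2 and 95.1 and 102 CPM at day 4. Its day 4 change (−2.60 ± 0.12, adjusted p = 8.70e-16) was the largest fall among the members, and no library of day 1 or later overlapped those of 0 h. Ccne2 was scarce, with 4 and 11 reads (1.95 and 4.70 CPM) at 0 h, and reached 12.4 and 8.12 CPM at 8 h and 13.04 and 14.4 CPM at day 1 (1.99 ± 0.44, adjusted p = 5.09e-04). It was at 17.9 and 10.7 CPM at day 2 (2.04 ± 0.43, adjusted p = 3.27e-04) and at 10.4 and 8.06 CPM at day 4 (1.42 ± 0.45, adjusted p = 0.00987). Every DMSO library in RA up to day 4 was above both 0 h libraries for Ccne2; its 8 h and day 4 calls were lost without 0 h replicate 1 or the first library of that time.

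Auxin during RA was compared with DMSO at the same time. No auxin group at 0 h of RA was made. Effects of auxin or DPY30 depletion that do not depend on RA thus cannot be told apart from effects on differentiation. No member was called at 8 h by edgeR or DESeq2, though 7 of 36 had an unadjusted p below 0.05 (0.727% of all genes were lower). Mcm3, with the smallest p there, was at 412 and 387 CPM with auxin and 502 and 503 CPM with DMSO (−0.33 ± 0.10, adjusted p = 0.129). At day 1, Ccne1 was lower (3.43% of all genes were) and Pole was higher (3.55% of all). At day 2, 9 of 36 were lower (8.09% of all), and at day 4, 10 were lower (11.6% of all), with none higher at either time; these were 25% and 27.8% of the members. The day 4 count was 4 without TMM factors (5.9% of all genes were lower in that fit, whose median over all genes moved up by 0.21), 6 under DESeq2 and 6 to 8 with 1 library left out (6 without auxin replicate 2 or DMSO replicate 2); the day 2 count was 5 to 7, the 5 being without auxin replicate 2. Cdc6, Mcm10, Mcm2 and Tyms were lower at both day 2 and day 4. The members' summed expression at day 4 was 3239 and 3336 CPM with auxin, against 3960 and 3990 CPM with DMSO. Markers differed as well. Pluripotency markers summed to 6217 to 6226 CPM with auxin and 8638 to 8710 CPM with DMSO at day 1, and to 3679 to 3706 CPM and 5124 to 5208 CPM at day 2. Primitive endoderm markers summed to 393 to 432 CPM with auxin and 591 to 599.7 CPM with DMSO at day 2. At day 4, pluripotency markers summed to 2507 to 2548 CPM with auxin and 4082 to 4114 CPM with DMSO, and primitive endoderm markers to 973 to 991 CPM and 2993 to 3037 CPM. The 8 RA-response markers summed to 926 to 981 CPM with auxin and 1607 to 1721 CPM with DMSO at day 1. At day 2 they summed to 1538 to 1542 CPM with auxin and 1786 to 1813 CPM with DMSO. The order turned at day 4, with 1255 to 1322 CPM with auxin and 1064 to 1073 CPM with DMSO. The part of all these markers in these results was not tested.

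**Figure D2:**
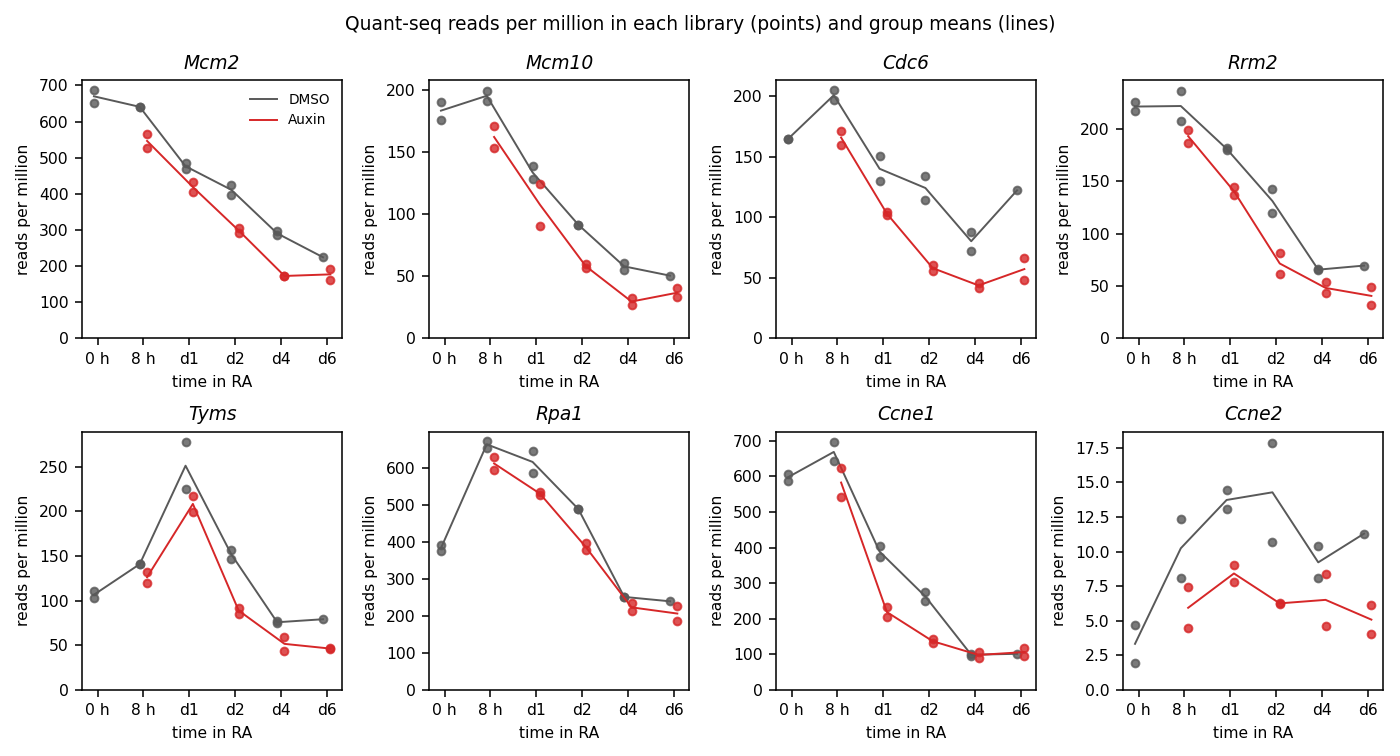
CPM of each Quant-seq library (points) over the RA course for 8 members, DMSO in grey and auxin in red, with time on the x axis. Auxin libraries lie below DMSO libraries for Cdc6, Mcm10, Mcm2 and Tyms at days 2 and 4, and for Ccne1 at days 1 and 2 but not at day 4.

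Ccne1 differed early and then met the control. It was at 232 and 205 CPM with auxin and 373 and 404 CPM with DMSO at day 1 (−0.83 ± 0.12, adjusted p = 4.50e-05), and at 143 and 130.4 CPM and 274 and 251 CPM at day 2 (−0.94 ± 0.12, adjusted p = 4.45e-06). At day 4 the groups overlapped, with 107 and 88.9 CPM and 95.1 and 102 CPM (log2 fold change −0.0092 ± 0.13). Ccne2 was at 6.21 and 6.29 CPM with auxin and 17.9 and 10.7 CPM with DMSO at day 2 (−1.17 ± 0.40, adjusted p = 0.0493), a call lost under DESeq2 and without auxin replicate 1, auxin replicate 2 or DMSO replicate 1.

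Among licensing and helicase genes, the largest differences were at Cdc6 and Mcm10. Cdc6 was at 55.4 and 60.6 CPM with auxin and 134 and 114 CPM with DMSO at day 2 (−1.10 ± 0.15, adjusted p = 1.02e-05), and at 41.5 and 45.9 CPM and 72.2 and 88.2 CPM at day 4 (−0.87 ± 0.16, adjusted p = 2.53e-04). Mcm10 was at 60.05 and 56.6 CPM and 91.5 and 91.9 CPM at day 2 (−0.65 ± 0.15, adjusted p = 0.00486), a call that reached an adjusted p of 0.0574 without auxin replicate 2. The difference at day 4, 32.3 and 27.2 CPM against 55.3 and 60.9 CPM (−0.97 ± 0.18, adjusted p = 2.36e-04), held with any library left out. Within the MCM complex the subunits differed unequally at day 4. Mcm2 was at 173 and 172 CPM with auxin and 285 and 296 CPM with DMSO (−0.75 ± 0.10, adjusted p = 4.51e-06), and Mcm3 (−0.51) and Mcm5 (−0.49) were lower too, the last with an adjusted p of 0.0541 without auxin replicate 1. Mcm4, with 247 and 210.3 CPM against 219.7 and 228 CPM, and Mcm6, with 210.2 and 169 CPM against 231 and 205 CPM, were not called, and whether the subunits differ from each other was not tested.

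Nucleotide supply and fork genes were also called, as were 2 more genes of licensing and helicase activation. Rrm2 was at 61.1 and 81.8 CPM with auxin and 142 and 119.6 CPM with DMSO at day 2 (−0.88 ± 0.16, adjusted p = 3.28e-04). Tyms was at 85.4 and 92.1 CPM and 157 and 146 CPM at day 2 (−0.77 ± 0.14, adjusted p = 3.05e-04); at day 4 (−0.56 ± 0.15, adjusted p = 0.0112) the call was lost without auxin replicate 2 or DMSO replicate 2. At day 2, Rpa1 (−0.34) and Rpa2 (−0.32) were lower by small amounts, the Rpa1 call being lost with any 1 library left out and the Rpa2 call in 3 of 4 such fits. At day 4, Gmnn (−0.46), Pcna (−0.55), Gins1 (−0.74) and Lig1 (−0.31; 283 and 335 CPM against 361 and 406 CPM) were lower, and each call was lost in 2 or 3 of the 4 fits with 1 library left out. The only member called higher than DMSO was Pole at day 1, with 60.5 and 56.8 CPM against 36.8 and 33.04 CPM (0.75 ± 0.22, adjusted p = 0.0352), and that call was lost with any 1 library left out and under DESeq2. At day 6, where no test was made, both auxin libraries were below the single DMSO library for 22 of 36 members (38.2% of all genes), among them Cdc6 (48.2 and 66.2 CPM against 122 CPM), and above it for 4 (33.4% of all). The auxin libraries of day 6 differed from each other, with Mcm4 at 180.2 and 58.1 CPM, Orc6 at 54.3 and 14.2 CPM, Fen1 at 112 and 33.1 CPM and Pcna at 195 and 103 CPM.

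In SLAM-seq without RA, total RNA changed in a minority of the members, up to 9 of 35 in 1 comparison. In DPY30–mAID cells, no member was called at 2 h (3 of 35 had an unadjusted p below 0.05; 0.0305% of all genes were lower). At 8 h 4 were lower (7.96% of all), and at 24 h 4 were lower (17.2% of all) and 5 higher (15.8% of all). In RBBP5–FKBP cells, none was called at 2 h (2 with an unadjusted p below 0.05; 0% of all genes were lower), 5 were lower at 8 h (5.28% of all; 6 without 0 h replicate 1 and 5 without 8 h replicate 2, the libraries lowest in Mcm4), and 3 were at 24 h (4.55% of all). In dKO cells, none was called at 2 h or 4 h (3 and 4 with an unadjusted p below 0.05; 0% of all genes were lower at either time). In the same cells, 1 was lower at 8 h (0.474% of all), 6 were lower and 1 higher at 24 h (6.86% and 4.72% of all), and 9 were lower at 48 h (8.13% of all). DESeq2 called no member either where edgeR called none. In those comparisons the members with the smallest p were, at 2 h, Mcm4 in DPY30–mAID cells (307, 319 and 183 CPM against 321, 405 and 385 CPM at 0 h), Orc1 in RBBP5–FKBP cells (79.02, 59.3 and 96.8 CPM against 52.9, 65.96 and 38.6 CPM) and Mcm10 in dKO cells (122 and 121 CPM against 153 and 136 CPM). At 4 h it was Rrm2 in dKO cells (184 and 189 CPM against 224 and 218 CPM). The members' median log2 fold change was between −0.22 and 0.03 in all 11 comparisons, and that of all genes between −0.014 and 0.016. Markers differed over the same times: the pluripotency markers summed to 10529 to 11518 CPM at 0 h, 8471 to 8956 CPM at 8 h and 8740 to 9381 CPM at 24 h in DPY30–mAID cells. In dKO cells they summed to 7548 to 8052 CPM at 0 h and 6496 to 6511 CPM at 24 h, and in RBBP5–FKBP cells to 7703 to 8268 CPM at 0 h and 7475 to 7699 CPM at 24 h. Trophectoderm markers summed to 144 to 184 CPM at 0 h and 76.3 to 98.4 CPM at 24 h in DPY30–mAID cells, and in dKO cells to 81.2 to 84.3 CPM at 0 h and 113 to 122 CPM at 48 h. In RBBP5–FKBP cells, primitive endoderm markers summed to 48.2 to 70.6 CPM at 0 h and 106 to 129 CPM at 8 h, and neural markers to 93.7 to 129 CPM at 0 h and 158 to 169.7 CPM at 24 h. Both lists went the other way in DPY30–mAID cells. There, primitive endoderm markers summed to 67.0 to 95.5 CPM at 0 h and 41.1 to 55.3 CPM at 24 h. Neural markers summed to 117 to 150 CPM and 60.9 to 93.4 CPM. The part of these lists in the results was not tested.

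**Figure D3:**
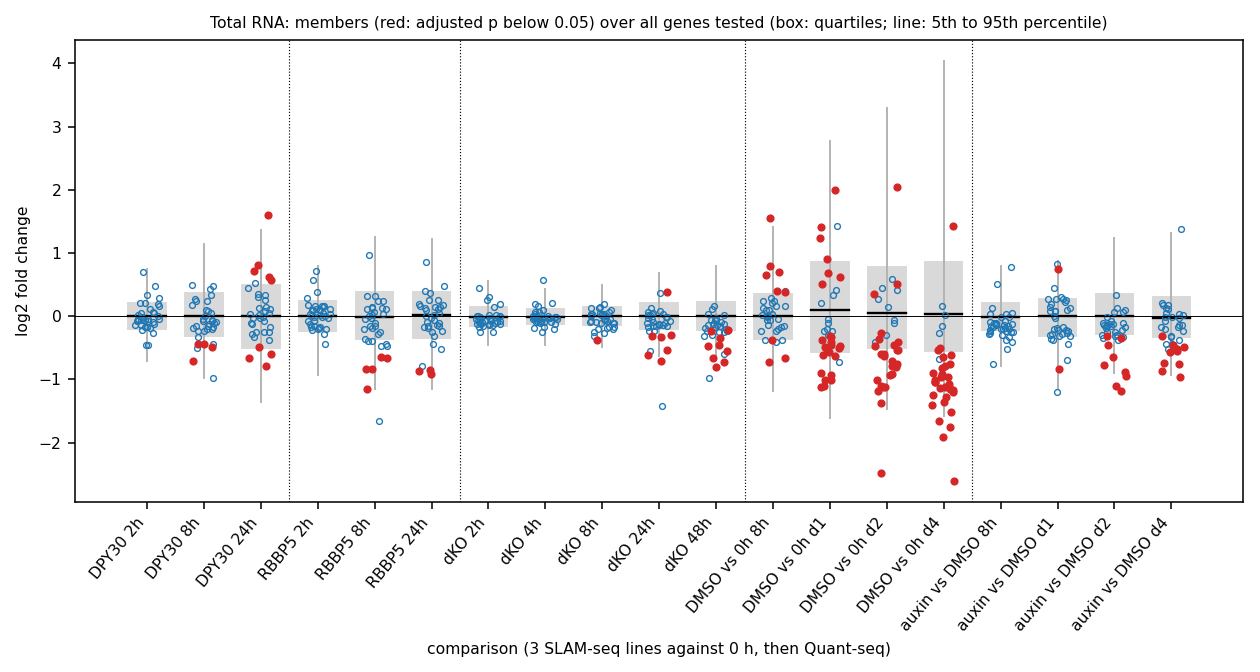
Log2 fold change of total RNA for each member (points, filled red where called) at each time of ligand in the 3 lines and in the RA comparisons (y axis), over boxes that span the quartiles of all genes tested. Without RA most members lie within or near the boxes, whereas in DMSO at day 4 of RA most members lie below the box.

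Ccne1 and Mcm10 were the members lower in total RNA in both degron lines at 24 h. Ccne1 in DPY30–mAID cells was at 366, 395 and 355 CPM at 0 h, 416, 389 and 321 CPM at 8 h and 242, 218 and 276 CPM at 24 h (−0.60 ± 0.11, adjusted p = 4.04e-05). In RBBP5–FKBP cells it was already lower at 8 h, with 457, 505 and 458 CPM at 0 h, 244, 178 and 220.2 CPM at 8 h (−1.15 ± 0.13, adjusted p = 4.67e-06) and 247, 262 and 246 CPM at 24 h (−0.91 ± 0.13, adjusted p = 7.66e-05). In dKO cells it was at 258 and 251 CPM at 0 h, 250.4 and 262 CPM at 8 h, 158 and 154 CPM at 24 h (−0.71 ± 0.08, adjusted p = 2.04e-05) and 156 and 137 CPM at 48 h (−0.80 ± 0.08, adjusted p = 4.69e-06). The groups called did not overlap with 0 h in any line. Mcm10 was at 156, 150.4 and 174 CPM at 0 h, 88.5, 108 and 97.3 CPM at 8 h (−0.71 ± 0.16, adjusted p = 0.00134) and 67.7, 96.6 and 113 CPM at 24 h (−0.79 ± 0.16, adjusted p = 1.00e-04) in DPY30–mAID cells. With dTAG-13, Mcm10 in RBBP5–FKBP cells was at 183, 173 and 157 CPM at 0 h, 90.5, 102 and 94.8 CPM at 8 h (−0.83 ± 0.16, adjusted p = 0.00202) and 78.7, 93.5 and 112 CPM at 24 h (−0.85 ± 0.16, adjusted p = 0.00148). In dKO cells Mcm10 went from 153 and 136 CPM at 0 h to 129 and 115 CPM at 48 h and was not called (log2 fold change −0.25).

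Other members changed in 1 or 2 of the lines. Cdc6 was lower in RBBP5–FKBP cells, with 118, 128 and 140.1 CPM at 0 h and 74.8, 67.4 and 73.3 CPM at 8 h (−0.84 ± 0.18, adjusted p = 0.00475), and Orc6 (−0.65) and Pcna (−0.67) were lower there at 8 h. In the DPY30–mAID line, Mcm3 was at 401, 374 and 319 CPM at 8 h against 489, 515 and 529 CPM at 0 h (−0.49 ± 0.10, adjusted p = 7.55e-04), and Rrm2 (−0.44) and Orc6 (−0.44) were lower too. The Orc6 calls were lost in 3 of 6 (RBBP5–FKBP) and 4 of 6 (DPY30–mAID) fits with 1 library left out, and the Rrm2 call without 0 h replicate 3 or 8 h replicate 3. At 24 h in DPY30–mAID cells, Cdt1 was at 202, 199 and 214 CPM against 305, 320.0 and 345 CPM at 0 h (−0.66 ± 0.12, adjusted p = 1.85e-05) and Mcm2 was lower (−0.49 ± 0.10, adjusted p = 2.44e-04). The members higher at that time were Rfc4 (38.1, 52.03 and 44.4 CPM against 16.00, 10.4 and 17.9 CPM; 1.60 ± 0.33, adjusted p = 1.01e-04), Rfc2 (0.72), Prim1 (0.62), Prim2 (0.80) and Gmnn (0.57). Of these, the Prim1 call was lost without 0 h replicate 1 and the Prim2 call in 4 of 6 fits with 1 library left out.

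In dKO cells, besides Ccne1, the ribonucleotide reductase subunit Rrm2 and Pcna were lower at both 24 h and 48 h. Rrm2 was at 224 and 218 CPM at 0 h, 142 and 145 CPM at 24 h (−0.62 ± 0.07, adjusted p = 4.07e-05) and 129 and 137 CPM at 48 h (−0.73 ± 0.07, adjusted p = 5.63e-06). Pcna was at 812 and 879 CPM at 0 h, 642 and 658 CPM at 8 h (−0.38 ± 0.06, adjusted p = 0.00654), 568 and 599 CPM at 24 h (−0.54 ± 0.06, adjusted p = 4.07e-05) and 528 and 542 CPM at 48 h (−0.66 ± 0.06, adjusted p = 4.28e-06). Its 8 h call was lost without 0 h replicate 2, 8 h replicate 1 or 8 h replicate 2; with reads that mapped to more than 1 place subtracted, the log2 fold change was −0.44 at 8 h and −0.80 at 48 h. Tyms (−0.47) and Gmnn (−0.46) were lower at 48 h in every fit with 1 library left out. At 24 h Tyms (−0.33), Gmnn (−0.29) and Rrm1 (−0.31) were called too, and these calls were lost in 3, 4 and 3 of 4 such fits. Orc1 was the member called higher at 24 h, with 98.1 and 94.1 CPM against 71.1 and 76.4 CPM (0.38 ± 0.10, adjusted p = 0.0212), a call lost in 3 of 4 such fits.

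Nascent RNA gave larger changes, in a setting where T>C reads of most genes were lower. On the scale of all reads, no member was called at 2 h in DPY30–mAID cells (0 of 33 had an unadjusted p below 0.05; 0% of all genes were lower). There, 4 were lower at 8 h (16.1% of all) and none at 24 h (5 had an unadjusted p below 0.05; 2.79% of all genes were lower). In RBBP5–FKBP cells, none of 30 was called at 2 h by edgeR and 1 by DESeq2 (2 with an unadjusted p below 0.05; 0.252% of all genes were lower), 4 were lower at 8 h (7.86% of all) and 7 were lower at 24 h (26% of all). In dKO cells, none of 32 was called at 2 h (2 with an unadjusted p below 0.05; 0% of all genes were lower). One member, Pcna, was lower at 4 h (0.587% of all) and at 8 h (1.59%), 18 were lower at 24 h (44.1%) and 28 at 48 h (72.5%). DESeq2 also called no member in the 2 h comparisons of DPY30–mAID and dKO cells and at 24 h in DPY30–mAID cells. The members' median log2 fold change stood near that of all genes: −0.84 against −0.72 at 8 h in DPY30–mAID cells, −0.59 against −0.51 at 8 h and −0.75 against −0.91 at 24 h in RBBP5–FKBP cells, and −0.80 against −0.81 at 24 h in dKO cells. At 48 h in dKO cells it was −1.54 against −1.30, with 22 of 32 members below the median of all genes. The shares of members called lower in these comparisons were 12.1%, 13.3%, 23.3%, 56.25% and 87.5%. With 1 library left out, the count of 18 at 24 h in dKO cells was 11 to 16 (11 without 0 h replicate 2 or 24 h replicate 2). The count of 4 at 8 h in DPY30–mAID cells was 11 under DESeq2 and 2 to 16 with 1 library left out, the 16 being without 8 h replicate 1. In the comparisons at 2 h, the members with the smallest p were Fen1 in DPY30–mAID cells (39.3, 28.4 and 19.2 CPM against 41.5, 39.3 and 51.8 CPM at 0 h), Tyms in RBBP5–FKBP cells (10.5, 11.4 and 12.7 CPM against 3.36, 2.13 and 1.84 CPM) and Mcm10 in dKO cells (4.99 and 7.08 CPM against 8.07 and 10.8 CPM). Members that did not reach a mean of 10 T>C reads in any group were not tested.

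**Figure D4:**
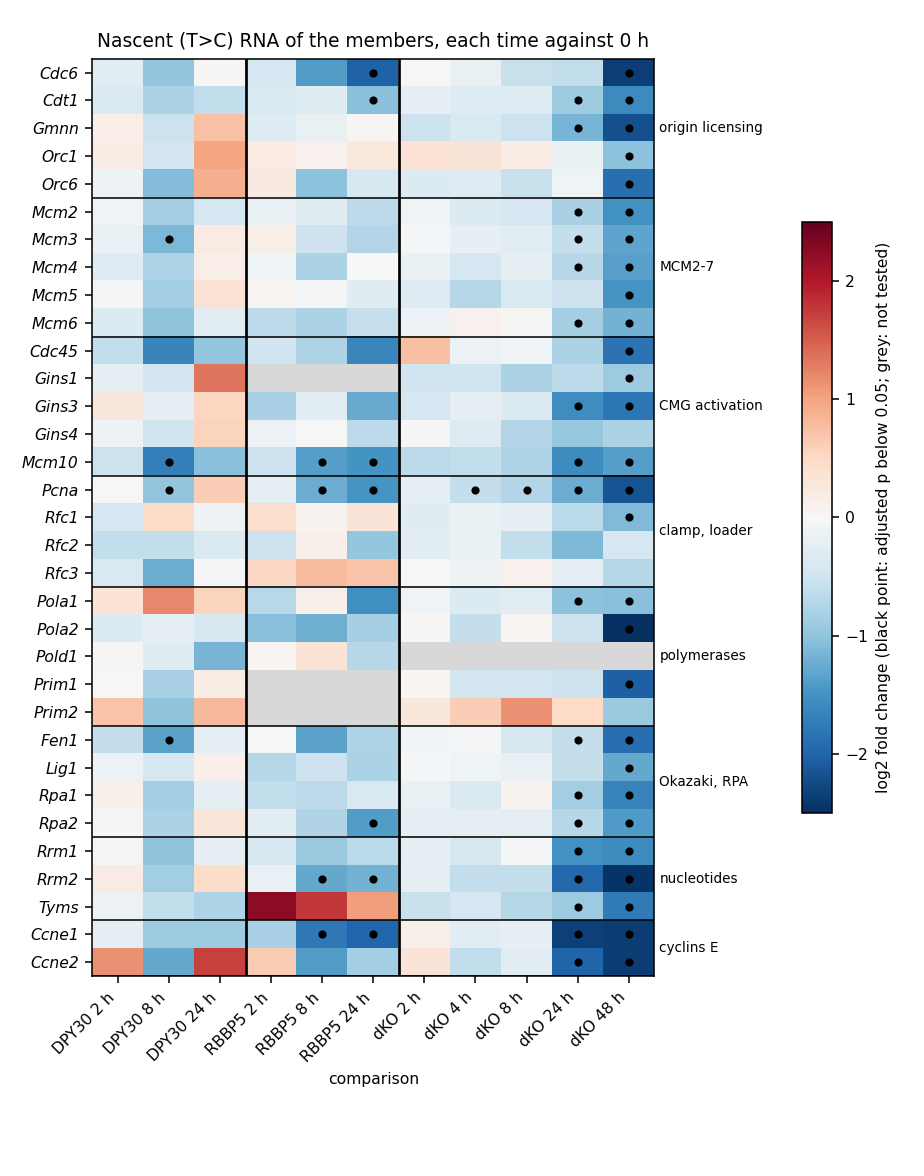
Log2 fold change of nascent RNA (colour) against 0 h for each member, ordered by role, at each time of ligand in the 3 lines. In dKO cells, 18 of 32 members were called lower at 24 h and 28 at 48 h, where 44.1% and 72.5% of all genes were lower. In DPY30–mAID cells 4 of 33 were called at 8 h (16.1% of all genes were lower) and none at 24 h (2.79%).

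Scaled instead to T>C reads, which sets the median gene near 0, few members stayed apart. This scaling moved the median of all genes by 0.63 (log2) at 8 h in DPY30–mAID cells, in RBBP5–FKBP cells by 0.38 at 8 h and 0.75 at 24 h, and by 0.75 and 1.203 at 24 h and 48 h in dKO cells. Members then lower in DPY30–mAID cells were 1 of 33 at 8 h (4.54% of all genes) and 2 of 33 at 24 h (6.71%), with 3 of 33 higher at 24 h (6.78%). These DPY30–mAID counts stood near the shares of all genes. The RBBP5–FKBP line had 1 of 30 lower at 8 h (1.01%) and 1 of 30 at 24 h (2.25%). In dKO cells there were 1 of 32 at 8 h (0.687%), 3 of 32 at 24 h (3.5%) and 6 of 32 at 48 h (4.84%). The members called lower on this scale were Mcm10 and Ccne1 in DPY30–mAID cells and Ccne1 in RBBP5–FKBP cells. In dKO cells they were Pcna, Ccne1, Rrm2, Gmnn, Cdc6 and Fen1. Those called higher were Rrm2, Pcna and Orc6 at 24 h in DPY30–mAID cells.

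Mcm10 and Pcna were the members called in nascent RNA in all 3 lines on the scale of all reads. Nascent Mcm10 in DPY30–mAID cells was at 47.99, 43.7 and 62.6 CPM at 0 h, 21.5, 13.5 and 11.7 CPM at 8 h (−1.72 ± 0.39, adjusted p = 0.00213) and 11.2, 32.7 and 30.98 CPM at 24 h (−1.05 ± 0.38, adjusted p = 0.107). Scaled to T>C reads it was lower at 8 h (−1.04, adjusted p = 0.0295) and at 24 h (−0.93, adjusted p = 0.0252). In RBBP5–FKBP cells it was at 32.2, 38.7 and 26.1 CPM at 0 h, 8.43, 18.4 and 10.3 CPM at 8 h (−1.39 ± 0.41, adjusted p = 0.0233) and 3.94, 13.1 and 17.7 CPM at 24 h (−1.48 ± 0.40, adjusted p = 0.00408). The 8 h call in that line was lost without 0 h replicate 2, 8 h replicate 1 or 8 h replicate 3, and the 24 h call without 24 h replicate 1 (adjusted p = 0.0632). In dKO cells it was at 8.07 and 10.8 CPM at 0 h and 2.95 and 3.41 CPM at 24 h (−1.57 ± 0.31, adjusted p = 2.84e-05). Scaled to T>C reads, Mcm10 was called at no time in RBBP5–FKBP or dKO cells. The treated libraries called lay below every 0 h library in each line.

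Nascent Pcna is given line by line, and the difference between DPY30–mAID and RBBP5–FKBP cells was not tested. In DPY30–mAID cells it was at 107, 91.1 and 119.9 CPM at 0 h, 80.4, 57.3 and 22.04 CPM at 8 h (−0.99 ± 0.32, adjusted p = 0.0274) and 172, 173 and 146 CPM at 24 h (0.62 ± 0.31, adjusted p = 0.266). The 24 h libraries lay above every 0 h library, and the 8 h call was lost without 0 h replicate 1, 0 h replicate 3 or 8 h replicate 2. After dTAG-13 it was at 47.1, 80.9 and 64.7 CPM at 0 h, 30.4, 28.9 and 22.5 CPM at 8 h (−1.24 ± 0.28, adjusted p = 0.00251) and 29.7, 17.3 and 22.5 CPM at 24 h (−1.47 ± 0.29, adjusted p = 6.32e-05). In dKO cells it was at 72.2 and 84.2 CPM at 0 h, 52.3 and 51.5 CPM at 4 h (−0.59 ± 0.15, adjusted p = 0.0421) and 43.3 and 50.6 CPM at 8 h (−0.74 ± 0.16, adjusted p = 0.00211). There it reached 32.2 and 33.6 CPM at 24 h (−1.25 ± 0.16, adjusted p = 7.28e-10) and 15.6 and 19.6 CPM at 48 h (−2.15 ± 0.17, adjusted p = 1.95e-19). The 4 h and 8 h calls there were lost without 0 h replicate 2 or replicate 1 of the treated time, and the 4 h call also without 4 h replicate 2.

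Nascent Ccne1 was at 101, 101 and 109 CPM at 0 h, 97.04, 44.3 and 27.7 CPM at 8 h and 42.1, 62.9 and 62.8 CPM at 24 h in DPY30–mAID cells, where it was called only with scaling to T>C reads (−0.78, adjusted p = 0.00569 at 24 h). In RBBP5–FKBP cells it was at 88.4, 75.9 and 56.6 CPM at 0 h, 49.97, 41.2 and 34.1 CPM at 2 h, 25.9, 17.8 and 20.2 CPM at 8 h (−1.79 ± 0.29, adjusted p = 1.25e-05) and 16.6, 20.1 and 19.2 CPM at 24 h (−1.98 ± 0.29, adjusted p = 3.40e-07). It stayed lower there with scaling to T>C reads (−1.22, adjusted p = 0.00639 at 24 h). In dKO cells it was at 16.3 and 13.9 CPM at 0 h, 10.5 and 15.8 CPM at 8 h and 3.23 and 2.67 CPM at 24 h (−2.34 ± 0.28, adjusted p = 5.61e-11). Cyclin E1 RNA was thus lower among nascent reads, relative to other genes, at 24 h in each of the 3 lines. Nascent Rrm2 was at 78.99, 71.9 and 78.6 CPM at 0 h and 114, 105 and 98.8 CPM at 24 h in DPY30–mAID cells. The values were 54.3, 96.8 and 77.6 CPM and 24.9, 33.7 and 43.1 CPM in RBBP5–FKBP cells (−1.17 ± 0.27, adjusted p = 6.36e-04), and 31.8 and 35.7 CPM and 6.75 and 10.5 CPM in dKO cells (−1.97 ± 0.21, adjusted p = 9.24e-13). The 24 h libraries lay above all 0 h libraries in the first line and below them in the other two.

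**Figure D5:**
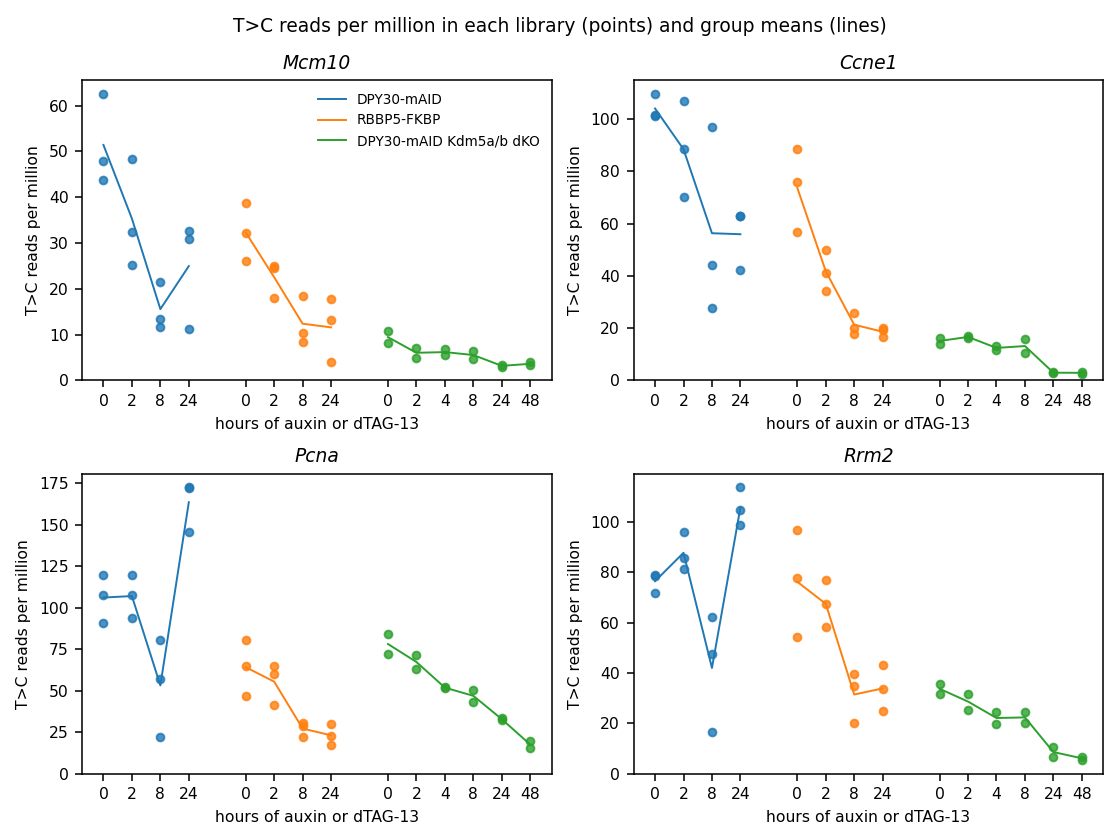
Nascent CPM of each library (points) for Mcm10, Ccne1, Pcna and Rrm2 against hours of ligand in the 3 lines. Pcna and Rrm2 at 24 h lie above the 0 h libraries in DPY30–mAID cells and below them in RBBP5–FKBP and dKO cells.

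Licensing and fork genes called in at least 2 lines were Cdt1, Cdc6, Mcm3, Fen1 and Rpa2. Cdt1 was at 137, 120.2 and 95.2 CPM at 0 h and 47.2, 61.3 and 62.3 CPM at 24 h in RBBP5–FKBP cells (−1.04 ± 0.22, adjusted p = 2.28e-04). It was at 53.95 and 63.6 CPM and 18.4 and 20.8 CPM at 48 h in dKO cells (−1.59 ± 0.17, adjusted p = 1.83e-13). Cdc6 was at 17.3, 22.3 and 29.8 CPM and 4.37, 4.68 and 8.14 CPM at 24 h in RBBP5–FKBP cells (−2.01 ± 0.48, adjusted p = 0.00109). In dKO cells it was at 7.17 and 7.08 CPM and 1.31 and 1.44 CPM at 48 h (−2.36 ± 0.37, adjusted p = 6.47e-08). Both genes act in loading the helicase, whose subunit Mcm3 was at 85.5, 81.9 and 84.2 CPM at 0 h and 62.5, 35.4 and 16.9 CPM at 8 h in DPY30–mAID cells (−1.13 ± 0.33, adjusted p = 0.0153), a call lost without 0 h replicate 1 or 8 h replicate 2. Mcm3 was at 38.3 and 39.5 CPM and 14.9 and 16.1 CPM at 48 h in dKO cells (−1.33 ± 0.18, adjusted p = 1.70e-09). Fen1, the nuclease that trims Okazaki fragments, was at 41.5, 39.3 and 51.8 CPM and 16.2, 25.6 and 10.8 CPM at 8 h in DPY30–mAID cells (−1.33 ± 0.37, adjusted p = 0.0117), a call lost without 0 h replicate 3 (adjusted p = 0.0639). In dKO cells Fen1 was at 25.9 and 44.1 CPM and 6.70 and 11.97 CPM at 48 h (−1.91 ± 0.21, adjusted p = 5.79e-13). Rpa2 was at 94.2, 66.7 and 38.97 CPM and 37.6, 28.5 and 8.62 CPM at 24 h in RBBP5–FKBP cells (−1.41 ± 0.32, adjusted p = 5.48e-04), and at 31.5 and 44.9 CPM and 14.6 and 14.1 CPM at 48 h in dKO cells (−1.42 ± 0.19, adjusted p = 4.95e-10). Pola2, a subunit of the primase-polymerase complex, had the largest fall at 48 h in dKO cells, from 1.64 and 2.14 CPM (11 and 16 T>C reads) to 0.146 and 0.433 CPM (1 and 3 T>C reads; −2.64 ± 0.72, adjusted p = 0.0011). By role, members lower at 48 h in dKO cells were all 5 of licensing, 5 of 5 MCM subunits, 4 of 5 helicase-activation genes, 2 of 4 clamp and clamp-loader genes tested, 3 of 4 polymerase and primase genes tested, 4 of 4 Okazaki and RPA genes, 3 of 3 nucleotide supply genes and both cyclins, where 72.5% of all genes were lower; 6 members were lower with scaling to T>C reads. The Ccne2 call was lost in 2 of 4 fits with 1 library left out and the Gins1 call in 3 of 4, and both were lost under DESeq2 (adjusted p = 0.0577 and 0.108).

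The difference between the auxin effects in dKO and DPY30–mAID cells, fitted as an interaction, asks whether KDM5 demethylases bear on the response. No member was called at 2 h (none had an unadjusted p below 0.05; 0% of all genes were lower) or 8 h (3 had an unadjusted p below 0.05; 0.0145% of all), and 3 of 33 were lower in dKO cells at 24 h (3.39% of all), where the median difference of all genes was −0.72. These were Rrm2 (−2.45 ± 0.44, adjusted p = 4.98e-04), Pcna (−1.89 ± 0.40, adjusted p = 0.00567) and Gmnn (−1.89 ± 0.53, adjusted p = 0.0327). The Rrm2 difference was lost without dKO 24 h replicate 1 (adjusted p = 0.0589), the Pcna difference without dKO 0 h replicate 2, 24 h replicate 1 or 24 h replicate 2, and the Gmnn difference in 8 of 10 fits with 1 library left out. Scaled to T>C reads, the median of all genes moved by 0.68, and Rrm2 and Pcna were called (0.71% of all genes were lower). Libraries of the 2 backgrounds also differed in T positions per read and in depth, which cannot be told apart from the background. The members with the smallest p at 2 h and 8 h were Cdc45 and Pola1. Nascent Cdc45 at 0 h and 2 h was at 2.24 and 2.54 CPM and 3.23 and 4.81 CPM in dKO cells, and at 8.00, 9.63 and 11.5 CPM and 7.36, 4.81 and 6.90 CPM in DPY30–mAID cells. Nascent Pola1 at 0 h and 8 h was at 7.17 and 6.95 CPM and 6.90 and 4.91 CPM in dKO cells, and at 2.50, 2.96 and 5.59 CPM and 11.8, 9.78 and 4.32 CPM in DPY30–mAID cells. DESeq2 was not run for this contrast.

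The share of new RNA at 0 h varied among the members. Conversions per T position, which rise with the share of RNA made during the 60 min of label, had a median of 0.933% over the members and 1.21% over all genes in DPY30–mAID cells, 0.549% and 0.602% in RBBP5–FKBP cells, and 0.507% and 0.512% in dKO cells. In DPY30–mAID cells the rate was 2.17% for Cdt1, 2.02% for Mcm10, 1.85% for Cdc6, 1.82% for Rrm2 and 1.75% for Ccne1, all above the median of all genes. It was 0.336% for Lig1 and 0.933% for Pcna, both below it. In dKO cells Pcna, with 0.776%, was above the median of all genes, and Ccne1, with 0.518%, was near it. Unlabelled Quant-seq reads at 0 h had a median of 0.0207% over the members and 0 over all genes. T>C reads made up 3.41% of unlabelled reads for Tyms and 3.38% for Rfc3. For Tyms this exceeded the 2.94% at 0 h in RBBP5–FKBP cells, so its T>C reads there may be background.

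Other genes of replication and of the G1/S transition numbered 83, in lists of firing and fork factors, polymerase partners, chromatin assembly, nucleotide synthesis and G1/S regulators, and 79 were in the tables. In RA with DMSO, 43 of 77 tested were lower and 7 higher at day 4 (26.6% and 27.8% of all genes). Auxin gave 15 lower and 2 higher at day 2 (8.09% and 5.34% of all), and 16 lower and 6 higher at day 4 (11.6% and 7.05% of all). Among them, Pclaf, a partner of PCNA, was lower with auxin, with −2.41 ± 0.11 at day 2 and −1.77 ± 0.13 at day 4 (log2). Tk1, thymidine kinase, had −1.05 ± 0.15 and −1.34 ± 0.16. Of the G1/S regulators, Cdkn2a, which encodes the CDK4/6 inhibitor p16INK4a and the MDM2 inhibitor p19ARF, was higher in DMSO at day 4, with 3.36 ± 0.22. Cdk4 was lower with auxin at that time, with −1.41. In total RNA of DPY30–mAID cells, 21 of 76 were lower and 10 higher at 24 h (17.2% and 15.8% of all), and in nascent RNA of dKO cells 36 of 59 were lower at 24 h (44.1% of all). For comparison, 40 mitosis and G2/M genes were listed, 38 of them tested in RA. In DMSO at day 4, 28 were lower and none higher (median −0.77), to be read against the same shares of all genes. With auxin, 1 was lower and 4 higher at day 2, and 8 were lower and 1 higher at day 4. In total RNA of DPY30–mAID cells at 24 h, 4 mitosis genes were lower and 13 higher, against 4 and 5 of the replication genes. Whether the 2 lists differ was not tested.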

How the data were processed

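SLAM-seq measured nascent and total RNA in 36 libraries and Quant-seq measured unlabelled RNA in 22. The authors deposited read counts and T>C read counts for 46420 intervals at annotated 3′ ends of mm10, with no molecular identifiers; file headers name SlamDunk 0.3.4, and the submitters' processing notes also name HISAT2 2.2.1, Trim Galore, cutadapt and featureCounts. The deposited T>C counts held 1.03 to 1.32 conversions per T>C read in SLAM-seq libraries, so the filter for at least 2 conversions in the study's methods is not applied in them. Deposited CPM columns were not used.

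Intervals were summed per gene, and all 20177 Ensembl gene identifiers were matched to a symbol. Genes averaging 10 or more reads in some group were tested with edgeR 4.0.16 (R 4.3.3; quasi-likelihood test, TMM factors and library sizes from total reads, Benjamini-Hochberg adjustment), in one fit per line, one fit of both DPY30–mAID backgrounds for the interaction and one fit of all RA groups. These RNA-seq fits were tested on simulated data with known changes. Alternatives were DESeq2 1.42.0, no filter, a log2 fold change beyond 1, the replicate number as a block, and each library left out. Nascent and interaction fits were also scaled to T>C reads. Total RNA and Quant-seq were also fitted without TMM factors and with multimapped reads subtracted. Both DMSO files of day 6 carried the same values and were used once, leaving 57 libraries. With 2 or 3 libraries per group, changes may have been missed, large ones included, most of all in nascent RNA and the interaction, so a member that was not called is not shown to be unchanged.

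The members and all lists (other replication and G1/S genes, mitosis genes, and markers of pluripotent cells, primitive endoderm, trophectoderm, fibroblasts, neural cells and RA response) were chosen with earlier results of these data known. Library values were given for the member with most reads at 0 h in each role, the smallest adjusted p and the largest called rise and fall in each comparison, and members called in nascent RNA in at least 2 lines; for other lists, counts and up to 4 called genes. Some further members were named after their values were seen. Figures and tables were made with Python 3.11.15, pandas 2.3.3 and matplotlib 3.10.9.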

Additional observations from a re-analysis of the deposited data

Results flagged for a closer look

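The effect of auxin on nascent RNA at 24 h differed between dKO and DPY30–mAID cells, by a test of the difference itself, for Gmnn (log2 difference −1.89), Rrm2 (−2.45) and Pcna (−1.89), where the median difference of all genes was −0.72. The Gmnn difference was lost in 8 of 10 fits with 1 library left out (adjusted p up to 0.21) and with scaling to T>C reads; the Rrm2 difference was lost without dKO 24 h replicate 1 and the Pcna difference without any of 3 dKO libraries in turn.

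For some members, every 24 h library lay on one side of the 0 h mean in DPY30–mAID cells and on the other side in RBBP5–FKBP cells, although in each pair only 1 of the lines passed the test (DPY30–mAID in total RNA, RBBP5–FKBP in nascent RNA). In total RNA, Cdt1 had a log2 fold change of −0.66 in DPY30–mAID cells and 0.25 in RBBP5–FKBP cells. Mcm2 had −0.49 and 0.18, and Gmnn had 0.57 and −0.17. In nascent RNA on the scale of all reads, Pcna had 0.62 and −1.47, Rrm2 had 0.47 and −1.17, and Rpa2 had 0.31 and −1.41. The median of all genes there was −0.14 in DPY30–mAID cells and −0.91 in RBBP5–FKBP cells. Scaled to T>C reads, Ccne1 was the only member called at 24 h in RBBP5–FKBP cells. On that scale Pcna and Rrm2 were called higher in DPY30–mAID cells. The difference between these lines was not tested, and line, ligand and clone cannot be told apart.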

How the results depend on the processing

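The counts of called members kept within 1.5 times the reported value under most settings, and no called count changed direction. Subtraction of multimapped reads was made for total RNA and Quant-seq only, and left all 26 counts within that bound. Nascent RNA and the interaction were not checked this way, so nascent Pcna, with most of its reads multimapped, stays uncertain. For exceptions the cause was not tested unless the setting itself gives it. Scaling to T>C reads gave, in DPY30–mAID cells, 1 member lower at 8 h and 2 at 24 h, for the RBBP5–FKBP line 1 at each of 8 h and 24 h, and in dKO cells 0 at 4 h, 3 at 24 h and 6 at 48 h. DESeq2 called 11 lower in nascent DPY30–mAID RNA at 8 h, 1 in nascent RBBP5–FKBP RNA at 2 h, 2 in total dKO RNA at 8 h, 0 higher with auxin at day 1 and 6 lower at day 4 of RA, and 1 lower and 2 higher at 8 h of RA in DMSO. Leaving out TMM factors moved the median of all genes by over 0.1 (log2) in total DPY30–mAID RNA at 8 h (0.11), with auxin in RA at day 2 (0.11) and day 4 (0.21), and in DMSO at day 4 (0.18), and raised the share of higher genes among all calls there from 39.4 to 60.4%, 39.8 to 58.2%, 37.9 to 70.8% and 51.1 to 62.3%. In total dKO RNA that share went from 38.6 to 56.98% at 8 h, 40.8 to 63.5% at 24 h and 44.2 to 67.7% at 48 h, in RBBP5–FKBP RNA from 42.1 to 54.7% at 8 h, and with auxin at 8 h of RA from 6.74 to 41.4%. Without TMM factors, 2 members were lower in total DPY30–mAID RNA at 8 h, 3 in total dKO RNA at 24 h, and 2 at day 1 and 4 at day 4 with auxin in RA. Without a filter, total RNA of dKO cells gave 2 lower at 8 h and 2 higher at 24 h.

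Requiring a log2 fold change beyond 1 left, in total RNA of DPY30–mAID cells, 0 lower at 8 h and 24 h and 1 higher at 24 h, in RBBP5–FKBP cells 1 lower at 8 h and 0 by 24 h, and 0 at 8 h, 24 h (either direction) and 48 h in dKO cells. In nascent RNA of dKO cells it left 0 at 4 h and 8 h and 9 at 24 h. With auxin in RA it left 0 at day 1 in either direction, 2 lower at day 2 and 0 at day 4; in DMSO it left 0 lower and 1 higher at 8 h, 4 and 3 at day 1, 7 and 1 at day 2, and 19 lower at day 4.

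Deviations of same-numbered libraries had a median correlation of −0.0023 in DPY30–mAID, −0.036 in RBBP5–FKBP, 0.083 in dKO cells and 0.00092 in RA. It was above 0.1 in 4 of 18, 4 of 18, 14 of 30 and 24 of 90 pairs. In dKO cells it reached 0.63, and the median for other numbers was −0.083. The study carried 2 dKO clones forward, and the labels do not name the clone of a library. The main fits did not pair samples by replicate number, and some same-numbered libraries may share deviations. With the replicate number as a block, 7 members were lower in nascent RNA at 8 h in DPY30–mAID cells and 2 at 8 h in dKO cells, and 2 in total RNA at 8 h in dKO cells, and the other 37 counts stayed within 1.5 times.

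With each library left out in turn, nascent counts at 8 h ranged from 2 to 16 in DPY30–mAID cells (16 without 8 h replicate 1, the library with the most T>C reads of its group; 2 without 0 h replicate 1, 0 h replicate 3 or 8 h replicate 2) and from 3 to 6 in RBBP5–FKBP cells, and were 0 to 1 at 4 h, 0 to 2 at 8 h and 11 to 16 at 24 h in dKO cells. Total counts at 8 h ranged from 2 to 5 in DPY30–mAID cells and, in dKO cells, from 0 to 1 at 8 h and from 3 to 5 lower and 0 to 1 higher at 24 h; the interaction at 24 h ranged from 0 to 3. With auxin in RA the range was 0 to 0 higher at day 1, 5 to 7 at day 2 and 6 to 8 at day 4, and in DMSO 1 to 2 lower and 2 to 3 higher at 8 h, 11 to 15 lower and 5 to 7 higher at day 1, and 0 to 1 higher at day 4.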
